A study of Mus musculus with 9 samples.

Results

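The interferon regulatory factors are a family of transcription factors, and all probes annotated to Irf1, Irf2, Irf3, Irf4, Irf5, Irf7, Irf8 or Irf9 were taken, whatever their values. That gave 15 probes for 8 genes, of 45281 probes on the array and 10880 genes tested. All 8 genes were measurable: each of the 15 probes was above the background limit on 9 of 9 arrays. The cells were splenic Gr-1+ (Ly6G+) cells, a gate that takes mainly neutrophils, taken from the spleen 7 days after transplantation of bone marrow by magnetic sorting and used above 97% purity. RNA from these cells was read on Illumina mouse arrays, 3 for each of 3 groups. The syngeneic group came from hosts of strain C57BL/6 (B6) without graft-versus-host disease, which is the attack of donor immune cells on host tissue. The WT group came from allogeneic hosts labelled C57BL/6 (B6), and the KO group from allogeneic hosts labelled B6.129-Ido1tm1Alm/J (IDO KO), a germline deletion of the tryptophan-degrading enzyme IDO1. The donor strain, the ages, and whether the sorted cells descended from host or donor are not in the labels. The study asked which pathways myeloid IDO1 regulates, with the syngeneic cells as controls.

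Interferon regulatory factors share a DNA-binding domain that recognises GAAA repeats, the core of the interferon-stimulated response element (ISRE). IRF3 and IRF7 lie dormant in the cytoplasm until kinases below nucleic acid sensors phosphorylate them, and then switch on type I interferon genes. Secreted type I interferon assembles IRF9 and STAT2 into the complex ISGF3, which switches on antiviral genes and Irf7 itself, whereas interferon gamma acts through gamma-activated sites (GAS) in DNA and induces Irf1. In myeloid cells IRF8 favours monocytes and dendritic cells over granulocytes, IRF5 drives inflammatory cytokine genes below Toll-like receptors, and IRF4 is best known from lymphocytes and some dendritic cells.

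The RefSeq promoter windows (build GRCm38.p6, 250 bases before to 50 after each start) covered all 8 genes in 11 windows. Both strands were searched for the ISRE core GAAANNGAAA and for the GAS TTCNNNGAA, which 3.44% and 8.3% of all 32851 windows hold. The windows of the 2 factors that passed a test between groups (Irf1 and Irf7), of Irf8, whose KO arrays all lay below the WT arrays, and of Irf2, which holds both motifs, are printed 5′ to 3′ on the gene's strand with matches in capitals. They lie at chr11:53769764-53770063 (+), chr7:141266375-141266674 (-), chr8:120736108-120736407 (+) and chr8:46739495-46739794 (+), in that order.
Irf1: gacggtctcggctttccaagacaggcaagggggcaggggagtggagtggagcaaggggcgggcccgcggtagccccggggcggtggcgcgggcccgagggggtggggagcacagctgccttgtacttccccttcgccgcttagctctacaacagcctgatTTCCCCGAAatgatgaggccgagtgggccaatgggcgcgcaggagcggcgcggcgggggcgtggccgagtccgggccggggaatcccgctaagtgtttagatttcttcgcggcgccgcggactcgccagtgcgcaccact
Irf7: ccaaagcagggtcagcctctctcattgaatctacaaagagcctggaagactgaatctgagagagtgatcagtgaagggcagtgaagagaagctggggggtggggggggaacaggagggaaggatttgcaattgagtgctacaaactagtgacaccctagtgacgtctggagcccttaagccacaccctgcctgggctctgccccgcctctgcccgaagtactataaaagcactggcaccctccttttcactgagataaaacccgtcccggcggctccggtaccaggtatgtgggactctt
Irf8: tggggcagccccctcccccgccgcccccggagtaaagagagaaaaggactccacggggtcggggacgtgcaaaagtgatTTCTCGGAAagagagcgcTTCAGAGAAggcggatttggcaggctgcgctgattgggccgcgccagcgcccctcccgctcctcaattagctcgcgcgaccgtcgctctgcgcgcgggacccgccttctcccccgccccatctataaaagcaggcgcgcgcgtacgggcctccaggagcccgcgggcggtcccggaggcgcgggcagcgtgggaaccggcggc
Irf2: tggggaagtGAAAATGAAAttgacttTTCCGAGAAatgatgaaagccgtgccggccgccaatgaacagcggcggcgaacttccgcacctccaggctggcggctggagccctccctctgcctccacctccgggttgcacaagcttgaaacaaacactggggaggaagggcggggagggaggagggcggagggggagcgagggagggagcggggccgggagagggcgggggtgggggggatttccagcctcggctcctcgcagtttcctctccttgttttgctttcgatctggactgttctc
The Irf1 window held 1 GAS match, TTCCCCGAA, 90 bases before the start. The Irf2 window held an ISRE core match, GAAAATGAAA, 241 bases before the start, and a GAS match, TTCCGAGAA, 224 bases before it. In Irf8 there were 2 GAS matches, TTCTCGGAA at 171 and TTCAGAGAA at 153 bases before the start. No match overlapped another, and the printed Irf7 window and those of Irf3, Irf4, Irf5 and Irf9 held neither string of letters. A match describes the letters in the window and says nothing of binding in these cells.

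Before the members, a few facts of the whole series bear on every value. Signals below are linear intensities as deposited, background-subtracted and normalised between arrays by the authors, and the background limit was a signal of 14.2. Differences are log2 fold changes from a limma fit over 10880 genes after adding an offset of 50, which makes folds of dim genes too small, and p-values are adjusted by Benjamini-Hochberg over all of them, with 0.05 as the threshold. Whether replicate arrays stand for different mice is not stated in the labels, so p-values measure only how much these arrays scatter, and that scatter may be technical. Ido1 gave a mean signal of -3.24 ± 4.46 (SD, n = 3) on the KO arrays, 26.2 ± 7.05 on the WT and 8.28 ± 4.77 on the syngeneic arrays, and neither a KO nor a syngeneic array reached the limit. The KO arrays lay on a chip of their own and the other groups on the second of 2 chips, so the effects of chip and of genotype cannot be told apart in either comparison with KO. The brightest Xist probe averaged -8.25 ± 3.1 on the KO arrays, 395 ± 61.3 on the WT and 842 ± 111 on the syngeneic arrays. The labels give no sex, and a difference in sex between KO and the other groups cannot be told apart from genotype either. WT replicate 2 stood apart: its mean correlation with the other WT arrays over genes was 0.919, against 0.998 between those arrays. Its summed T cell markers (9 of 10 on the array) reached 48970, against 2386 to 2442 on the other WT arrays, and its neutrophil markers (11 of 12) summed to 71060, against 199000 to 206400. Each factor and list is therefore also described without it, and in these bulk samples fewer cells of a type and less RNA per cell cannot be told apart.

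**Figure D1:**
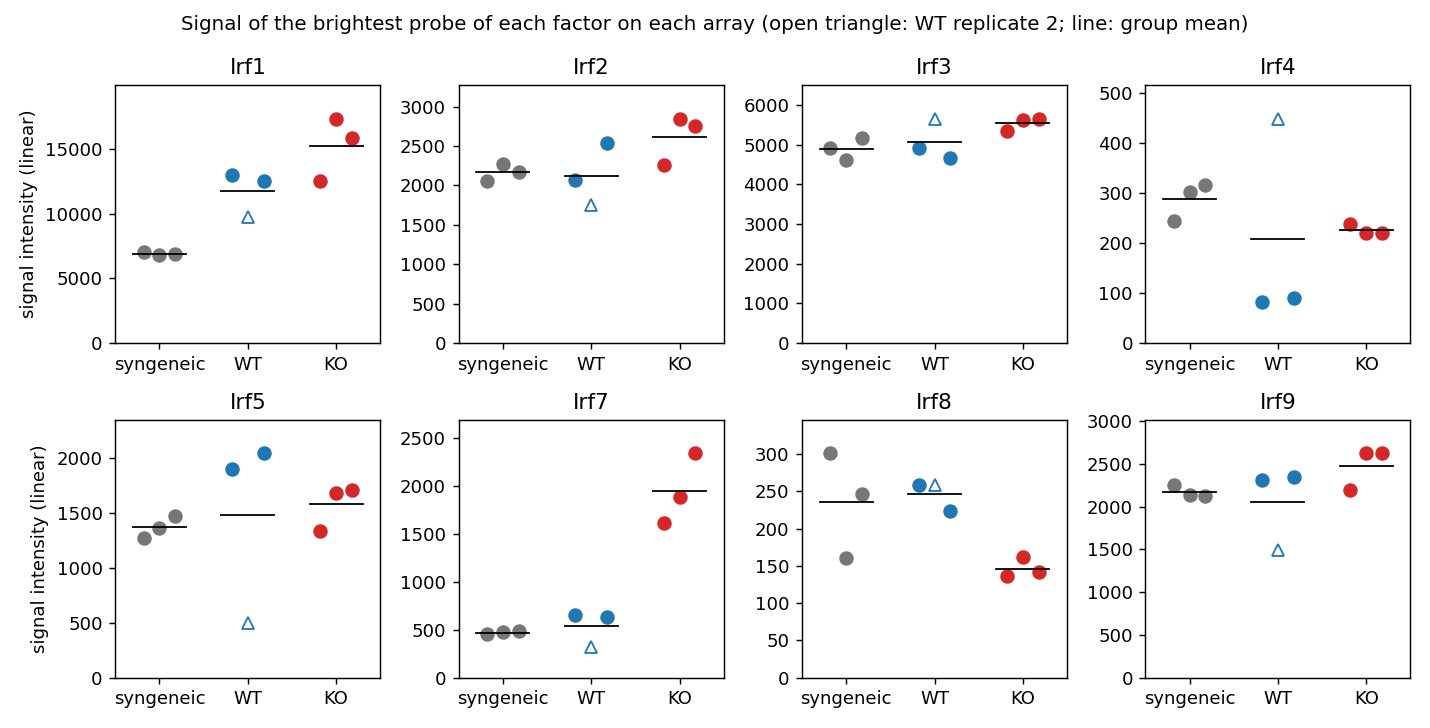
Signal intensity (linear scale, y axis from 0) of the brightest probe of each of the 8 factors on each of the 9 arrays. Filled circles are arrays, the open triangle is WT replicate 2 and lines are group means of 3 arrays. Irf7 separates the KO arrays from all others, Irf1 separates the syngeneic arrays from all others, and WT replicate 2 lies far from its group in Irf4 and Irf5.

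Irf7, the interferon-induced amplifier of type I interferon production, was the only factor that passed the test between KO and WT cells. Its signals were 1614, 1878 and 2337 on the KO arrays, 654, 324 and 632 on the WT arrays, and 453, 474 and 481 on the syngeneic arrays. Every KO array lay well above all 6 others, and WT and syngeneic cells overlapped. Irf7 rose 3.42-fold from WT to KO cells (95% interval 2.35 to 4.97), a log2 change of 1.77 ± 0.24 (SE) with an adjusted p of 0.0144. Without WT replicate 2, whose 324 was the lowest signal of all, the log2 change was 1.49 with an adjusted p of 1.9e-05. The call was lost without KO replicate 2 (adjusted p 0.0781), without KO replicate 3 (adjusted p 0.0733) and when the syngeneic arrays were left out of the fit (adjusted p 0.152), with log2 changes of 1.64 to 1.79 in these 3 fits. Against syngeneic cells, Irf7 rose 3.71-fold in KO cells (log2 1.89 ± 0.24, adjusted p 0.00166). WT and syngeneic cells differed by 0.12 ± 0.24 (adjusted p 0.778), with a 95% interval of -0.42 to 0.66. That difference was 0.40 and passed without WT replicate 2 (adjusted p 0.0291), while without WT replicate 1 or WT replicate 3 it was -0.04 or -0.01. Of 11 tested monocyte and macrophage markers, 4 were called higher in KO than in WT cells and 0 lower, beside 1.18% and 0.827% of all genes. Without WT replicate 2, 7 were called higher and 1 lower, beside 10.2% and 9.77%. The part of these cells in the Irf7 difference was not tested. Syngeneic cells had the highest sum of these markers, 76450 to 78060, beside the lowest Irf7 group mean, 469.6.

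Irf1, the factor that interferon gamma induces and that drives genes of antigen presentation, was higher in both allogeneic groups than in syngeneic cells. The syngeneic arrays gave 7054, 6821 and 6884, the WT arrays 12987, 9756 and 12504, and the KO arrays 12526, 17369 and 15889. No syngeneic array overlapped either allogeneic group, WT replicate 2 was the lowest of the allogeneic arrays, and KO replicate 1 lay within the WT range. Irf1 rose 1.68-fold from syngeneic to WT cells (95% interval 1.33 to 2.12; log2 0.75 ± 0.15, adjusted p 0.0166), and the log2 change was 0.87 without WT replicate 2 (adjusted p 0.000169). This call was lost when any 1 of the other syngeneic or WT arrays was left out: adjusted p 0.0641, 0.0713 and 0.0692 without syngeneic replicates 1, 2 and 3, and 0.0532 and 0.0512 without WT replicates 1 and 3. From syngeneic to KO cells Irf1 rose 2.17-fold (log2 1.12 ± 0.15, adjusted p 0.00219). The difference between KO and WT cells, 0.37 ± 0.15, did not pass (adjusted p 0.226), and its interval of 0.03 to 0.71 reached from almost none to a 1.64-fold difference.

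All 5 Irf1 probes rose in both comparisons with syngeneic cells. Their log2 changes ran from 0.75 to 0.94 in WT cells, where 5.13% of 17221 single probes rose, and from 1.12 to 1.52 in KO cells, where 5.41% did. Between KO and WT cells the 5 differences were all positive, 0.37 to 0.73, and none passed over all probes (adjusted p 0.0676 to 0.245). On 4 of the 5 probes, all but the brightest, every KO array lay above every WT array, as did 10.5% of single probes. When WT replicate 2 was left out, 3 of the 5 Irf1 probes were called higher in KO cells (adjusted p 0.022, 0.0233 and 0.00361), beside 8.97% of single probes. The brightest probe, which stood for the gene above, was not among them (adjusted p 0.172), so whether Irf1 counts as changed between KO and WT cells differed by probe.

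**Figure D2:**
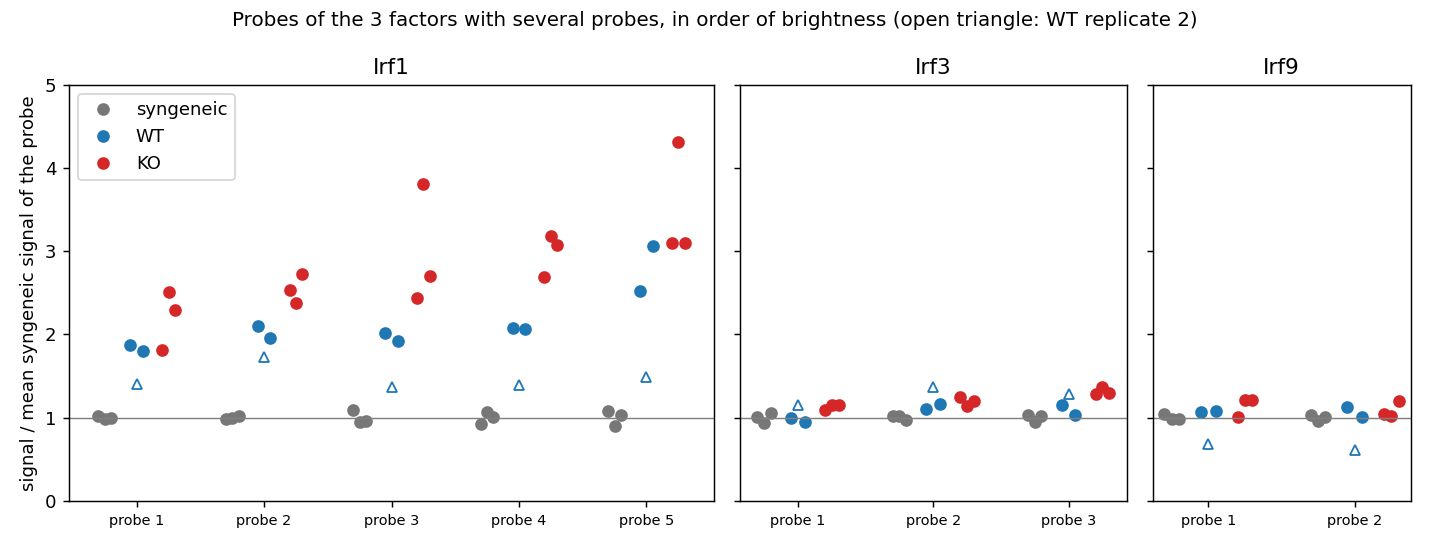
Signal of each probe of the 3 factors with several probes, divided by that probe's mean syngeneic signal (y axis, linear ratio), on the 9 arrays. Points are arrays, coloured by group, open triangles are WT replicate 2, and the line at 1 is the syngeneic mean. The 5 Irf1 probes order the groups alike, while the Irf3 and Irf9 probes stay close to 1 apart from the low Irf9 signals of WT replicate 2.

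Irf2, which binds the same sites as IRF1 and often represses them, passed in no comparison. KO arrays gave signals of 2255, 2849 and 2751, WT arrays 2067, 1758 and 2535, and syngeneic arrays 2062, 2275 and 2165. All 3 groups overlapped. KO against WT gave 0.30 ± 0.14 (adjusted p 0.3), WT against syngeneic -0.05 (adjusted p 0.866) and KO against syngeneic 0.26 (adjusted p 0.303). The first 2 differences were 0.18 and 0.08 without WT replicate 2 (adjusted p 0.302 and 0.66), so the sign of the second turned.

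Irf3, the constitutively made partner of IRF7 in the first wave of interferon beta, had the smallest standard error of the 8 factors, 0.09 on the log2 scale, and its brightest probe passed in no comparison. The brightest Irf3 probe gave 5352, 5628 and 5660 on the KO arrays, 4914, 5641 and 4667 on the WT arrays, and 4926, 4610 and 5180 on the syngeneic arrays. The KO arrays all lay above the syngeneic arrays, whereas WT cells overlapped both groups. The difference of 0.18 ± 0.09 between KO and syngeneic cells did not pass (adjusted p 0.28), nor did 0.13 between KO and WT cells (adjusted p 0.485) or 0.05 between WT and syngeneic cells (adjusted p 0.784). Leaving out WT replicate 2 gave 0.18 (adjusted p 0.0792), 0.21 (adjusted p 0.0975) and -0.03 (adjusted p 0.803) in the same order. On all 3 Irf3 probes the KO arrays lay above the syngeneic arrays, with log2 differences of 0.18, 0.24 and 0.34. Only the dimmest was called (adjusted p 0.0429), beside 5.41% of single probes. Without WT replicate 2 the 2 dimmer probes were called (adjusted p 0.0209 and 0.00344), where 19.3% of all genes were higher. Between KO and WT cells the probes differed in sign: 1 gave -0.02 and the rest were positive.

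Irf9, the DNA-binding subunit of ISGF3, passed in no comparison. Its brightest probe gave 2198, 2625 and 2624 on the KO arrays, 2315, 1494 and 2353 on the WT arrays, and 2254, 2133 and 2126 on the syngeneic arrays. WT replicate 2 was the lowest array on both Irf9 probes, and the groups overlapped. KO and WT cells differed by 0.29 ± 0.17 (adjusted p 0.402), and by 0.08 without that array (adjusted p 0.58). Neither Irf9 probe was called in any comparison with all 9 arrays.

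Irf5, the factor of inflammatory cytokine genes, was decided by 1 array. The KO signals were 1340, 1687 and 1712, the WT signals 1902, 498 and 2044, and the syngeneic signals 1275, 1363 and 1472. WT replicates 1 and 3 were the highest of all 9, and WT replicate 2 was the lowest by far. With all arrays Irf5 showed no called difference (KO against WT 0.30 ± 0.45, adjusted p 0.749; WT against syngeneic -0.11, adjusted p 0.896; KO against syngeneic 0.19, adjusted p 0.835). The signs turned without WT replicate 2: Irf5 was called higher in WT than in syngeneic cells (0.51, adjusted p 0.00503), and KO against WT was -0.32 and did not pass (adjusted p 0.0666). The summed neutrophil and monocyte or macrophage markers were lower on the same array, 71060 and 3382 against 199000 to 206400 and 11040 to 11180 on the other WT arrays, and their part in the Irf5 value was not tested.

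Irf8, which directs progenitors towards monocytes and dendritic cells and restrains granulocyte output, was the one factor with a lower level in every KO array than in any WT array. Its signals were 136, 162 and 141 on the KO arrays, 259, 258 and 223 on the WT arrays, and 301, 160.2 and 246 on the syngeneic arrays. Syngeneic replicate 2 lay within the KO range, so those 2 groups overlapped. The difference from WT to KO cells, -0.56 ± 0.17, did not pass with all arrays (adjusted p 0.129), and was called without WT replicate 2 (-0.53, adjusted p 0.0381). Irf8 itself was little altered on that array, whose signal was 258, so the direction and size did not rest on it. KO against syngeneic cells gave -0.48 (adjusted p 0.106), which passed without WT replicate 2 (adjusted p 0.0202) or without syngeneic replicate 2 (-0.67, adjusted p 0.0183). Without syngeneic replicate 1, the highest of that group, it shrank to -0.32 and did not pass (adjusted p 0.299). Summed monocyte and macrophage markers (11 of 12 on the array) ran the other way between WT and KO cells. They gave 19840 to 24740 on the KO arrays, 3382 to 11180 on the WT arrays and 76450 to 78060 on the syngeneic arrays. Not every member did so: Ccr2 gave 559.4, 533.1 and 368.4 on the KO arrays and 1352 and 1397.5 on WT replicates 1 and 3. On WT replicate 2 it was 227.9. The part of these cells in the Irf8 values was not tested.

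Irf4, known from T cells, B cells, plasma cells and dendritic cells, varied widely within the WT group. The KO signals were 238, 219 and 220.4, the WT signals 82.2, 449 and 90.8, and the syngeneic signals 244, 302 and 316. The WT arrays held both the highest and the lowest signals of all 9, and every KO array lay below every syngeneic array. No comparison passed with all arrays: KO against WT gave 0.35 ± 0.42 (adjusted p 0.689), WT against syngeneic -0.62 (adjusted p 0.372) and KO against syngeneic -0.27 (adjusted p 0.746). Without WT replicate 2, Irf4 was called lower in WT than in syngeneic cells (-1.20, adjusted p 2.08e-06), higher in KO than in WT cells (0.93, adjusted p 8.29e-05) and lower in KO than in syngeneic cells (-0.27, adjusted p 0.0297). Summed markers of plasmacytoid dendritic cells (7 of 8 on the array) followed the same order, 674.7 to 716 on WT replicates 1 and 3, 1016 to 1416 in KO cells, 3910 to 3991 in syngeneic cells and 5529 on WT replicate 2. Siglech, Ly6d, Pacsin1 and Cox6a2 each kept this order. Tcf4 did not separate KO cells (398.1 to 510.8) from WT replicates 1 and 3 (483.8 and 504.6). Klk1 was below the limit on these arrays, and Ccr9 was above it on no array. B cell markers (7 of 9) summed to 386.5 to 392.3 on WT replicates 1 and 3 and 604.2 to 753.2 in KO cells. They reached 994.9 to 1113 in syngeneic cells and 1851 on WT replicate 2, with Pax5 and Cr2 above the limit on no array. T cell markers summed to 8365 to 19020 in KO cells and 6912 to 7162 in syngeneic cells, with Cd8a and Cd5 above the limit on no array. Summed markers of 2 other types ran in other orders. Plasma cell markers (6 of 6) summed to 13220 to 13590 on WT replicates 1 and 3 and 15480 to 16260 in syngeneic cells. They reached 16900 on WT replicate 2 and 18000 to 21010 on the KO arrays, with Jchain above the limit on no array. Xbp1 was the brightest of them on every array. Mzb1 alone kept the order of Irf4, with 1850 and 1644 on WT replicates 1 and 3 and 2900 to 3157 in KO cells. It gave 3870 to 4331 in syngeneic cells and 8138 on WT replicate 2. Tnfrsf17 was highest in syngeneic cells. Conventional dendritic cell markers (8 of 8) had their lowest sums in syngeneic cells, 10120 to 11980, against 17770 to 20120 on all other arrays. Flt3, Xcr1 and Cd209a were above the limit on none. H2-Ab1 made up nearly all of these sums, 9925.5 to 11783.5 in syngeneic cells. Clec9a ran otherwise, with 42.7 and 58.3 on WT replicates 1 and 3 and 43.4 to 49.2 in KO cells. It gave 146.2 to 152.6 in syngeneic cells and 254.2 on WT replicate 2. Zbtb46 was likewise higher in syngeneic cells, 23.1 to 33.4, than in KO cells, 7.6 to 16, and highest on WT replicate 2, 133.3. The part of these cells in the Irf4 values was not tested.

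**Figure D3:**
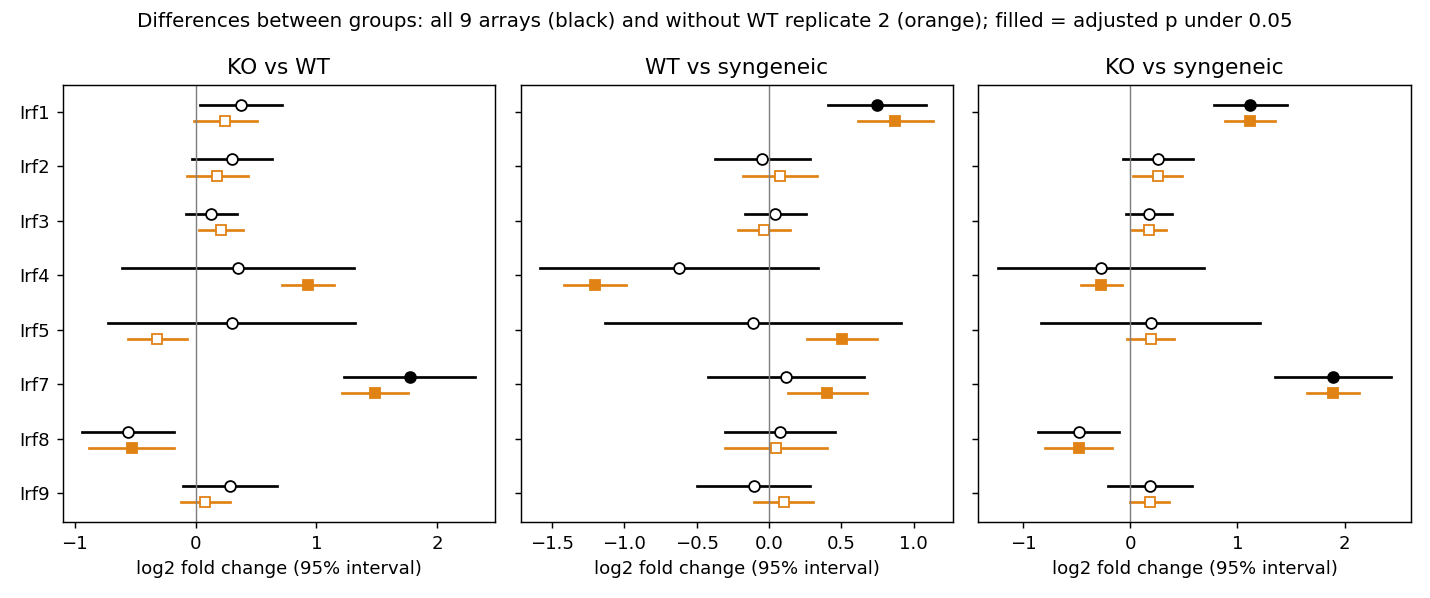
Log2 fold change of each factor in the 3 comparisons (x axis, with 95% intervals), from the limma fit with all 9 arrays (black circles) and without WT replicate 2 (orange squares). Filled symbols have an adjusted p under 0.05. With all arrays Irf7 is filled in both comparisons with KO and Irf1 in both comparisons with syngeneic cells, and intervals narrow for Irf4 and Irf5 without WT replicate 2.

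Counted over the family, 1 of 8 factors (Irf7) rose from WT to KO cells and 0 fell in the limma fit, where 1.18% of all genes rose and 0.827% fell. At an unadjusted p under 0.05 there were 3 of 8 factors in either direction, and 18.9% of all genes. From syngeneic to WT cells 1 factor (Irf1) rose and 0 fell, beside 4.8% and 5.63% of all genes. From syngeneic to KO cells 2 rose (Irf1 and Irf7) and 0 fell, beside 5.08% and 6.85%. At an unadjusted p under 0.05, WT against syngeneic held 1 factor and 27.1% of all genes, and KO against syngeneic 3 factors and 25.8%. The fit without WT replicate 2 gave, for KO against WT, 2 higher (Irf4 and Irf7) and 1 lower (Irf8), where 10.2% and 9.77% of all genes were called. WT against syngeneic then gave 3 higher (Irf1, Irf5 and Irf7) and 1 lower (Irf4), beside 14.6% and 14.9%, and KO against syngeneic 2 higher (Irf1 and Irf7) and 2 lower (Irf4 and Irf8), beside 19.3% and 20% of all genes. The comparisons share arrays, so these counts are not independent of each other.

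Groups did not overlap for Irf7 (KO above WT) and Irf8 (KO below WT), as for 10.8% and 12.6% of all genes in those directions. Irf1 separated WT above syngeneic cells, as did 21.9% of genes. Irf1, Irf3 and Irf7 separated KO above syngeneic cells and Irf4 below, beside 24.9% and 24.4%. The median log2 difference between KO and WT cells over the 8 factors was 0.30, against -0.02 over all genes, with 7 factors positive and 1 negative. Leaving out WT replicate 2 gave medians of 0.20 and -0.01.

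**Figure D4:**
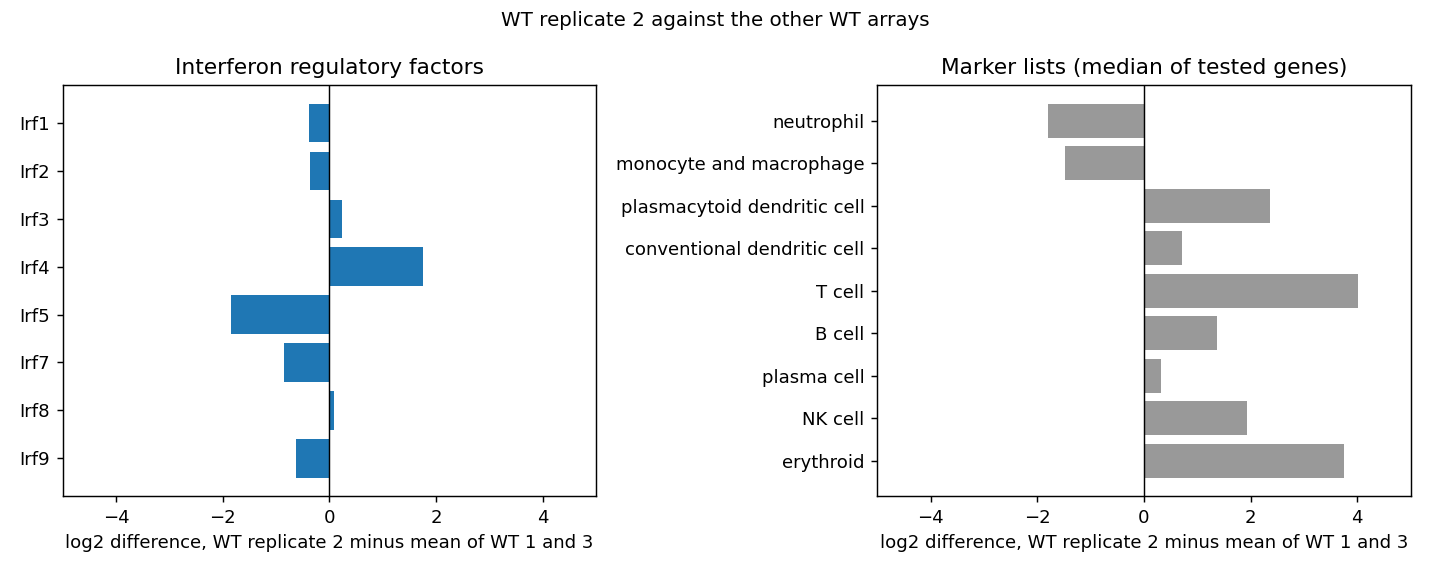
Log2 difference between WT replicate 2 and the mean of the other 2 WT arrays (x axis) for each factor, left, and as the median of the tested genes of each cell type marker list, right. Bars start at 0. Irf4 is higher by 1.75 and Irf5 lower by 1.85 on this array, and T cell and erythroid markers are higher by 4.02 and 3.76.

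WT replicate 2 differed from the mean of the other WT arrays by 1.75 (log2) in Irf4, -1.85 in Irf5, -0.86 in Irf7, -0.62 in Irf9, -0.38 in Irf1, -0.37 in Irf2, 0.23 in Irf3 and 0.08 in Irf8. Irf5 and Irf4 lay farthest from their group, in opposite directions, and Irf8 lay nearest. Median marker differences on the same array were -1.80 for neutrophils, -1.47 for monocytes and macrophages, 4.02 for T cells, 2.36 for plasmacytoid dendritic cells, 1.94 for NK cells, 1.36 for B cells and 3.76 for erythroid cells. Apart from the fits without this array, the part of these cells in its values was not tested.

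Upstream of IRF3, IRF5 and IRF7, a list of 26 sensors, adaptors and kinases had 20 members tested. Dhx58, which encodes the RNA sensor LGP2, was the only one called between KO and WT cells (0.96 ± 0.19, adjusted p 0.0483, mean signals 2963 and 1514). Over all genes, 1.18% rose and 0.827% fell from WT to KO cells. From syngeneic to WT cells Sting1, the adaptor of the DNA sensor cGAS, rose (0.67, adjusted p 0.0152), and the RNA receptor Tlr7 (-1.51, adjusted p 0.018) and the IRF3 and IRF7 kinase Ikbke (-1.12, adjusted p 0.0149) fell. Over all genes, 4.8% rose and 5.63% fell from syngeneic to WT cells. From syngeneic to KO cells 5 of the list rose and 1 fell, beside 5.08% and 6.85% of all genes. Between KO and WT cells, 7 were higher and 2 lower without WT replicate 2, where 10.2% and 9.77% of all genes were called.

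Of 18 interferon genes on the array, 6 were tested and 11 were above the limit on no array. The interferon alpha genes are near-identical copies, so their probes may share transcripts. Ifnb1, the first target of IRF3, gave 38.8 on KO replicate 3 and at most 10.1 on the other arrays. Ifng, which induces Irf1, gave 390.1, 753.7 and 1907 on the KO arrays, 138.8, 1946 and 148 on the WT arrays, and 38.5, 31.3 and 46.9 on the syngeneic arrays. WT replicate 2 and KO replicate 3 were highest, the same arrays that had the highest summed T cell markers of their groups, 48970 and 19020. Between groups the order differed: these sums were 6912 to 7162 on the syngeneic arrays and 2386 to 2442 on WT replicates 1 and 3. The part of T cells in the Ifng values was not tested. No interferon gene was called by limma between KO and WT cells or between WT and syngeneic cells. At an unadjusted p under 0.05, 1 and 2 were higher, beside 18.9% and 27.1% of all genes in either direction. Ifng differed by 1.02 between KO and WT cells with all arrays (adjusted p 0.566) and by 2.11 without WT replicate 2, where it was called (adjusted p 0.00467). From syngeneic to KO cells it differed by 3.10, with an adjusted p of 0.057, and of 4.3e-05 without that array. Ifna6 was then called higher in WT than in syngeneic cells (0.30, adjusted p 0.0424). The low signal of Ifna1 was called higher in KO than in syngeneic cells (0.28, adjusted p 0.0367).

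Among 7 tested receptors, kinases and STATs, 2 rose from WT to KO cells, beside 1.18% of all genes. The 2 were Stat2, the partner of IRF9 in ISGF3 (0.94 ± 0.11, adjusted p 0.00804, mean signals 642 and 306), and the receptor kinase Jak1 (0.92, adjusted p 0.00413). From syngeneic to WT cells Jak2, a kinase of the interferon gamma receptor, rose (0.39, adjusted p 0.0405) and Jak1 fell (-1.10, adjusted p 0.000177), beside 4.8% and 5.63% of all genes. These 4 calls held without WT replicate 2, and subunits of the interferon gamma receptor were then called lower: Ifngr2 in KO than in WT cells (-0.31, adjusted p 0.0268) and Ifngr1 in WT than in syngeneic cells (-0.38, adjusted p 0.0108). Thus of the IRF-containing complex ISGF3, Stat2 was called higher in KO than in WT cells and Irf9 was not; the difference between these genes was not tested.

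Of 15 tested ISGF3 target genes, 4 rose from WT to KO cells and 0 fell, beside 1.18% and 0.827% of all genes. The 4 were the ubiquitin-like modifier Isg15 (1.53, adjusted p 0.00413), Oasl1 (1.36, adjusted p 0.00413), a translational inhibitor of Irf7, the antiviral Rsad2 (1.32, adjusted p 0.032) and Ifit2 (1.45, adjusted p 0.0478). The list's median was 0.90, against -0.02 over all genes. With WT replicate 2 left out, 12 of 15 were called higher, beside 10.2% of all genes, and the list's median was 0.55. From syngeneic to WT cells Rsad2 fell (-1.75, adjusted p 0.00225; mean signals 2190 and 7258), while Oasl1 (0.51, adjusted p 0.0467) and Ifi35 (0.63, adjusted p 0.002) rose, and the other 12 were not called. Over all genes 4.8% rose and 5.63% fell in that comparison. Without WT replicate 2, 10 of 15 were called higher in WT cells and 1, Rsad2, lower, beside 14.6% and 14.9% of all genes. KO against syngeneic cells, with all arrays, gave 8 higher and 0 lower, beside 5.08% and 6.85%.

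Of 13 tested target genes of IRF1, 8 rose from syngeneic to WT cells and 0 fell, beside 4.8% and 5.63% of all genes. The list's median was 0.89 against 0.04 over all genes. The guanylate-binding protein Gbp2 rose by 1.95 (adjusted p 1.7e-05), the peptide transporter subunit Tap1 by 1.37 (adjusted p 4.4e-05), the immunoproteasome subunit Psmb10 by 1.13 (adjusted p 9.2e-05) and the interferon-inducible GTPase gene Gm12250 by 2.00 (adjusted p 0.000149). From syngeneic to KO cells 11 rose and 0 fell, beside 5.08% and 6.85% of all genes, and the list's median was 1.27. Between WT and KO cells 3 rose, beside 1.18% of all genes. The 3 were Cd274, which encodes the checkpoint ligand PD-L1 (1.62, adjusted p 0.0169), Gbp2 (0.63, adjusted p 0.0279) and Tap2 (0.61, adjusted p 0.0367). With WT replicate 2 left out, 10.2% of all genes were called higher in KO than in WT cells and 9.77% lower. WT against syngeneic cells then gave 14.6% and 14.9%. In that fit, 8 of these targets were called higher in KO than in WT cells and 1, the cytokine gene Il15, lower (-0.36, adjusted p 0.0142). For WT against syngeneic, 11 targets were higher and 1, again Il15, lower (-0.38, adjusted p 0.00704). Other transcription factors act on many of the same genes, so the list is not a readout of IRF1 alone.

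The remaining lists held few calls. Of 10 tested inhibitors, Usp18, which blocks type I interferon receptor signalling, rose from WT to KO cells (1.29 ± 0.16, adjusted p 0.00984). Trim21, a ubiquitin ligase for several of these factors, rose from syngeneic to WT cells (0.59, adjusted p 0.0216), as did Socs1, an inhibitor of JAK kinases, with mean signals of 13.9 and 67.4. Over all genes, 1.18% rose from WT to KO cells and 4.8% from syngeneic to WT cells in the fit with all arrays. Without WT replicate 2, 5 inhibitors were called higher in KO than in WT cells, beside 10.2% of all genes. WT against syngeneic then gave 4 higher inhibitors and 1 lower (Otud5), beside 14.6% and 14.9% of all genes. Of 10 partners and coactivators none was called by limma between KO and WT cells. At an unadjusted p under 0.05, 2 were higher, beside 18.9% of all genes in either direction. From syngeneic to WT cells Batf2, a partner of IRF1, rose (1.81, adjusted p 0.0253) and Batf3, a partner of IRF8, fell (-0.63, adjusted p 0.00417), beside 4.8% and 5.63% of all genes. Batf2 was also called higher in KO than in WT cells without WT replicate 2 (0.47, adjusted p 0.00739). None of 3 tested cytokine targets of IRF5 and none of 4 tested IRF8 targets was called in any comparison with all 9 arrays. At an unadjusted p under 0.05, KO against WT held 0 of them, beside 18.9% of all genes in either direction. WT against syngeneic held 1 higher IRF5 target and 1 lower IRF8 target, beside 27.1% of all genes. KO against syngeneic held 1 higher and 1 lower IRF5 target and 1 lower IRF8 target, beside 25.8%. Mean signals on the syngeneic, WT and KO arrays were 10.4, 13.4 and 10.8 for Il23a and 12.1, 13.1 and 17.5 for Nf1. Cybb gave 26, 7.04 and 3.37. Il23a, Nf1 and Cybb thus lay near or below the background limit in WT and KO cells, so their missing calls say little. When WT replicate 2 was left out, Tnf, an IRF5 target, was lower (-1.02, adjusted p 1.91e-05), and Klf4, an IRF8 target of monocytes, was lower (-0.99, adjusted p 5.89e-05) in KO than in WT cells, while Il12a of the IRF5 list (0.43, adjusted p 0.0126) and Pml of the IRF8 list (0.43, adjusted p 0.0117) were higher. In that fit 10.2% of all genes were called higher and 9.77% lower.

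As a description over 9 arrays, which share groups and WT replicate 2, the gene most like Irf7 was Isg15 (Pearson r 0.992, and 0.996 over the 8 arrays without WT replicate 2), followed by Gusb (0.989) and Dab2 (0.986). Irf1 was most like Dolpp1 (0.994), Luzp1 (0.993) and the class I gene H2-Q5 (0.985). Irf4 followed Gaa (0.973), Smad3 (0.963) and Ccnd2 (0.962). For Irf5 the nearest genes were Dennd2a, Trio and the myeloid gene Ms4a6d, whose correlations of 0.982 to 0.984 became 0.880 to 0.910 without WT replicate 2. Those of Irf9 were Snx10 (0.991), Stambpl1 (0.983) and Apaf1 (0.979), those of Irf2 Adipor2 (0.961), Zfp819 (0.952) and Pramel12 (0.948), and those of Irf3 Donson (0.952), Jak3 (0.947) and Rhof (0.946). Irf8 had the weakest likeness, to Tgs1 (0.902), Rnf168 (0.890) and Rala (0.872). Within the family Irf5 and Irf9 were most alike (0.909, and 0.538 without WT replicate 2), while Irf7 and Irf8 ran opposite (-0.784, and -0.759 without it), as did Irf4 and Irf5 (-0.779 and -0.828).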

How the data were processed

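Gene expression in splenic Gr-1+ cells was measured on 9 Illumina arrays in 3 groups of 3, grouped by the sample titles. For 45281 probes the deposited table gives signal intensities with detection p-values; per the submitters' processing notes GenomeStudio was used, version not stated. The intensities were found to be background-subtracted (35.6% were at or below 0) and to share 1 distribution across arrays, and the deposited log2 values of the series table equal their logarithm. Because the files hold intensities and no counts, the number of arrays limits the precision.

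From the deposited intensities, normexp background correction (offset 50), quantile normalization and log2 were computed with limma 3.58.1 in R 4.3.3. A probe was kept if it was above 14.2, the 95th percentile of 1594 probes whose genes (odorant, taste and vomeronasal receptors, keratin-associated proteins) these cells should lack, on 3 or more arrays: 17221 of 34885 probes with 1 gene symbol in the platform annotation passed, another 18 had several symbols and 10378 none. Each of 10880 genes was represented by its brightest kept probe. lmFit with 1 mean per group and eBayes gave 95% intervals and p-values, adjusted by Benjamini-Hochberg. The procedure was tested on simulated data with equal scatter on all arrays, which does not cover an array like WT replicate 2. Promoter sequences are from RefSeq (GRCm38.p6).

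The members and all gene lists were chosen with earlier results of these data known. Named genes are all members, Ido1, from each list up to 4 genes with the smallest p in KO against WT and in WT against syngeneic cells, and the 3 genes most correlated with each member. Xist, genes named for a call without WT replicate 2 and outside this rule, as well as single genes of the marker lists, were named after their values were seen. Alternatives in normalization, filter, probe choice, array weights, arrays used and replicate block were fitted.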

Additional observations from a re-analysis of the deposited data

How the results depend on the processing

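Irf1 and Irf7 were higher in KO than in syngeneic cells, with an adjusted p under 0.05, in 21 of 21 settings. Irf7 was called between KO and WT cells in 17 of 21 settings and Irf1 between WT and syngeneic cells in 15 of 21. Beside the main counts of factors called (1 in KO against WT, 1 in WT against syngeneic, 2 in KO against syngeneic), array weights gave 4, 4 and 5 and genes called rose from 218, 1135 and 1298 to 2966, 4370 and 4588; these weights gave WT replicate 2 a weight of 0.0415. Fitting only the 6 arrays compared gave 0 factors in KO against WT and 4 in KO against syngeneic, and 2, 698 and 4000 genes. The replicate block gave 0 factors and 31 genes in KO against WT (Irf7 adjusted p 0.0557), and 0 factors and 717 genes in WT against syngeneic (Irf1 adjusted p 0.0537). Deviations of same-numbered arrays from their group means had r from -0.167 to 0.111, over 0.1 in 1 of 9 pairs. WT replicate 2 weighs on the WT means, and the labels do not say what the numbers stand for. Whether the numbers pair the arrays is therefore not settled. In KO against WT, 105 genes passed with no background correction and 89 from the series table's log2 values. Leaving out 1 array gave 0 to 3 factors and 33 to 2177 genes in KO against WT, 0 to 4 and 485 to 3215 in WT against syngeneic, and 2 to 4 and 649 to 4270 in KO against syngeneic; WT replicate 2 gave each highest gene count. Signs turned for values that the main fit did not call. Some turned values were called: Irf5 in WT against syngeneic passed with array weights (adjusted p 0.00301) and without WT replicate 2 (adjusted p 0.00503). In KO against WT, Irf5 was -0.23 with array weights and -0.32 to 0.64 with 1 array left out. In WT against syngeneic, array weights turned Irf2 (0.050), Irf3 (-0.025), Irf5 (0.48) and Irf9 (0.094), and a background from the detection p-values turned Irf5 (0.030). With 1 array left out there, Irf2 ran from -0.18 to 0.078, Irf3 from -0.033 to 0.10, Irf5 from -0.44 to 0.51, Irf7 from -0.037 to 0.40, Irf8 from -0.12 to 0.23 and Irf9 from -0.21 to 0.10. With that detection-based background the Irf7 difference between KO and WT cells was 0.27, still called; the detection p-values follow the signals only in part. Where an alternative changes a call, the cause was not tested.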
